A study of Mus musculus with 12 samples.

Results

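Adding an antibody against CSF1 to Lupron was examined in mouse prostate tumours by RNA-seq: 3 tumours given Lupron and anti-CSF1 (called the combination below) were compared with 3 tumours given Lupron. These 6 libraries are the ones whose titles name these treatments, out of 12 in the series, and 14291 of the 23479 gene symbols in the count table passed the filter on low counts and were tested. All 12 tumours grew in C57BL/6J mice from 100000 PTE-82 prostate cancer cells, which the labels describe as expressing TMPRSS2-ERG, placed in the prostate in 40 µl of PBS and Matrigel. The mice of both groups used here received 0.6 mg of Lupron on day 4, anti-CSF1 was added in the combination group on days 9 and 14, and the mice were perfused and the tumours removed on day 17. The other 6 libraries are 3 tumours given IgG and 3 given anti-CSF1 without Lupron. The sources used here do not give the age of the mice, the origin of the line, or whether the Lupron group also received IgG. All tumours come from 1 transplanted line. Nothing in the labels states that the 3 tumours of a group came from 3 mice, so p-values measure only the spread between these samples, which may be technical.

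Lupron (leuprolide) is an agonist of the gonadotropin-releasing hormone receptor that, given continuously, shuts down testicular androgen production. CSF1 is the growth factor on which most tissue and tumour macrophages depend for survival, division and maturation. It acts through the receptor tyrosine kinase CSF1R, which has another ligand, IL-34, that an antibody to CSF1 does not bind. Macrophages in tumours take up dead cells, present antigen on MHC class II, express complement C1q and Fc receptors, and handle cholesterol from the cells they engulf.

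The 6 libraries held 20584363 to 29217530 counts each, and their RNA integrity numbers were 8.7 to 9.4. A library that stood apart was Lupron replicate 2, in which seminal vesicle genes took 29.2% of all counts, against 0.391% to 7.59% in the other 5, and in which the 28S/18S ratio was 0.7 against 1.2 to 1.8. In a principal component analysis Lupron replicate 2 lay apart from the rest along component 1 (37.5% of the variance) and the combination replicate 2 along component 2 (24.3%). Luminal epithelial RNA was present: the keratin gene Krt8 had 25.4, 91.1 and 63.2 CPM in the Lupron tumours and 50.9, 35.7 and 36.3 CPM in the combination tumours. The mouse gene Erg, which shares its name with the fusion partner in the labels, had 16.8, 10.6 and 15.7 CPM and 18.9, 13.3 and 16.5 CPM (log2 difference 0.17 ± 0.24, edgeR adjusted p = 0.990). The groups overlapped for both genes. Reads were counted on the mouse genome, and Erg is also on the list of endothelial markers used below. Whether its counts report the fusion transcript was not tested. CPM are counts scaled to a common library size by TMM, values are listed for replicates 1, 2 and 3, and means are given ± SD with n = 3 tumours a group.

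Tumours given anti-CSF1 beside Lupron had less RNA of macrophage genes, of MHC class II genes and of many other genes of white blood cells, and more RNA of 3 granzyme genes and of Cthrc1. At an adjusted p under 0.05 (edgeR quasi-likelihood test, Benjamini-Hochberg over all 14291 genes), 204 genes (1.43%) changed: 200 fell (1.4%) and 4 rose (0.028%). The median log2 difference of the 200 was -2.13, a 4.36-fold fall, and they ran from -1.06 to -4.97. In each of the 204 genes the 3 tumours of one group lay above the 3 of the other, a separation that 7.19% of all tested genes showed downward and 5.9% upward. Over all genes the median log2 difference was 0.04, with 7928 genes above 0 and 6363 below. In bulk tissue, fewer cells of a type and less RNA per cell cannot be told apart.

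Several settings changed how many genes passed. Without Lupron replicate 2, the library rich in seminal vesicle RNA, 175 genes passed, 165 of them among the 204. Leaving out the combination replicate 2, the combination replicate 3 or Lupron replicate 3 left 99, 85 and 116 genes. With all 12 libraries in 1 fit no gene passed (lowest edgeR adjusted p = 0.058; 642 genes at an unadjusted p under 0.05; DESeq2 called 236), and the biological coefficient of variation was 0.471 against 0.348 with 6 libraries. With IgG replicate 3 left out of that fit, a setting chosen after seeing the data, 210 passed, 181 of them among the 204. In the 12-library fit 201 of the 204 had an unadjusted p under 0.05. In the 16 alternatives run, all 204 had the same direction wherever they were tested. A core of 74 genes, 73 lower and 1 higher, passed in all 6 fits that each left out 1 tumour. For genes named below that lost their call in some of those 6 fits, the number of fits passed or its range, and the highest adjusted p, are given for the gene or its group.

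**Figure D1:**
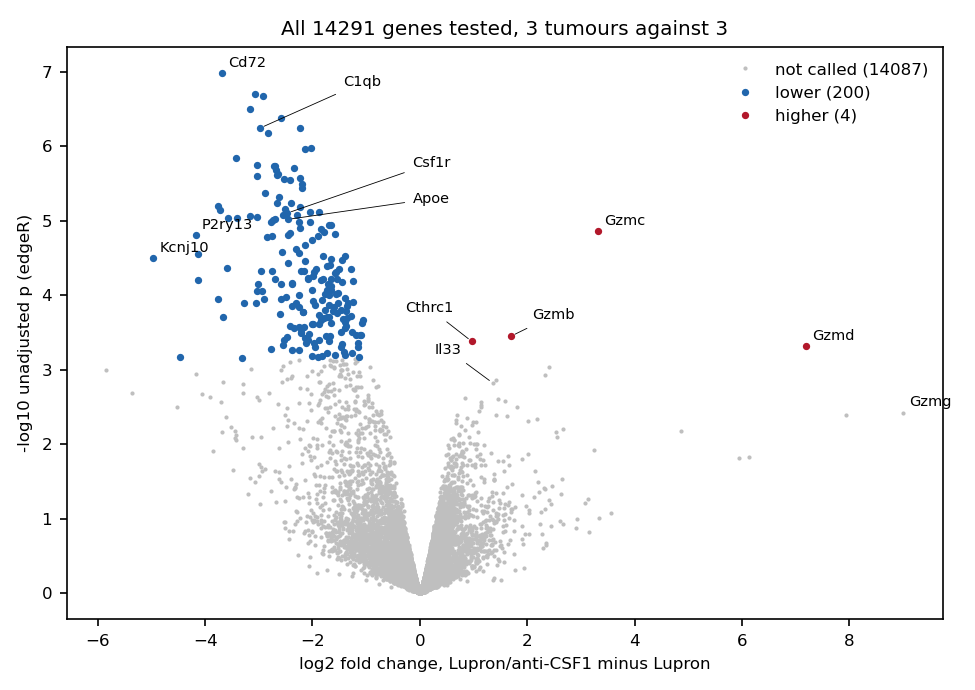
Log2 fold change of all 14291 tested genes (x axis, the combination minus Lupron) against the -log10 of the unadjusted edgeR p (y axis); blue points are the 200 genes called lower, red points the 4 called higher and grey points the rest. All but 4 of the called genes lie on the left, from Kcnj10 at -4.97 to the granzyme genes Gzmc at 3.32 and Gzmd at 7.18.

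The receptor for CSF1 fell and its ligands did not pass the test. Csf1r had 135, 79.7 and 103 CPM in the Lupron tumours and 23.4, 14.8 and 19.2 CPM in the combination tumours, so that the lowest Lupron tumour stood well above the highest combination tumour. The mean went from 106 ± 28.0 to 19.2 ± 4.34 CPM, a 5.53-fold fall (log2 -2.47 ± 0.26 SE, edgeR adjusted p = 0.00312). Csf1 itself had 96.0, 48.1 and 59.3 CPM and 57.8, 32.8 and 79.7 CPM, with overlapping groups (log2 -0.26 ± 0.35, edgeR adjusted p = 0.990). Il34 had 6.42, 4.83 and 6.20 CPM and 4.43, 6.73 and 2.72 CPM, again overlapping (log2 -0.34 ± 0.38, edgeR adjusted p = 0.990). Of the 8 colony-stimulating factor and receptor genes tested all 8 had estimates below 0 and 4 passed, or 2 without the combination replicate 1. Beside Csf1r these were the alpha chain of the GM-CSF receptor, Csf2ra, from 52.4 ± 6.49 to 19.9 ± 1.04 CPM (log2 -1.40), and the beta chains Csf2rb, from 35.4 ± 3.16 to 14.9 ± 2.23 CPM (log2 -1.25), and Csf2rb2, from 18.2 ± 1.31 to 7.47 ± 1.01 CPM (log2 -1.28). Csf2rb passed in 4 and Csf2rb2 in 2 of the 6 fits without 1 tumour (highest edgeR adjusted p = 0.0774 and 0.118).

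The macrophage markers were mostly lower. Of 27 tested (30 listed), 19 fell and 25 had estimates below 0, with a median log2 difference of -2.18 against 0.04 over all genes. Their summed level was 2187 to 2601 CPM in the Lupron tumours and 485 to 671 CPM in the combination tumours. Without the combination replicate 3, 11 of them passed. Emr1, which encodes the F4/80 antigen (now Adgre1), had 55.1, 50.3 and 52.1 CPM and then 8.71, 4.33 and 6.04 CPM, an 8.23-fold fall (log2 -3.04 ± 0.27, edgeR adjusted p = 0.00185). The 3 Lupron tumours were close together for this gene and far above every combination tumour. Aif1, the calcium-binding protein IBA1 used to stain macrophages, had 54.9, 60.2 and 52.3 CPM and 8.29, 7.83 and 6.10 CPM (log2 -2.91 ± 0.20, edgeR adjusted p = 0.00102). Cx3cr1, the fractalkine receptor, had 64.7, 34.5 and 46.4 CPM and 5.65, 3.81 and 4.09 CPM (log2 -3.42 ± 0.29, edgeR adjusted p = 0.00185). The spread among Lupron tumours was wide for Cx3cr1, yet the lowest of them stood far above the highest combination tumour.

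The 3 genes of complement C1q, the opsonin that macrophages make in tissue, all fell. C1qa had 272, 223 and 234 CPM and 40.8, 34.3 and 27.1 CPM, C1qb had 312, 278 and 266 CPM and 45.2, 34.5 and 29.3 CPM, and C1qc had 199, 111 and 139.9 CPM and 24.4, 12.2 and 13.5 CPM. Their log2 differences were -2.84 ± 0.22, -2.97 ± 0.23 and -3.16 ± 0.34 (edgeR adjusted p = 0.00118, 0.00117 and 0.00312). The groups did not overlap for any of the 3, which lie side by side within chr4:136880126-136898844 (GRCm38.p6, the build the files call mm10). The scavenger receptor Msr1 fell from 63.6 ± 8.25 to 11.9 ± 3.93 CPM and the high-affinity IgG receptor Fcgr1 from 36.6 ± 2.63 to 6.64 ± 2.57 CPM. Other falls were in Ms4a7 (58.6 ± 23.7 to 4.91 ± 1.93 CPM), the mannose receptor Mrc1 (56.0 ± 9.61 to 17.8 ± 2.76 CPM), the integrin Itgam, or CD11b (22.1 ± 2.27 to 6.36 ± 1.70 CPM), and the lysosomal glycoprotein Cd68 (67.8 ± 20.2 to 17.6 ± 5.39 CPM).

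Several of these calls were lost when a tumour was left out. Mrc1 lost its call without the combination replicate 3 (edgeR adjusted p = 0.0541). Itgam and Fcer1g passed in 4 of the 6 fits without 1 tumour, Cd68, Lgmn, Lyz2 and Tyrobp in 3 and Slc11a1 in 1, with highest edgeR adjusted p from 0.068 for Itgam to 0.145 for Slc11a1. Lyz2, lysozyme M, had 393, 837 and 425 CPM and 127, 145 and 93.2 CPM, with Lupron replicate 2 far above the other Lupron tumours. Not every marker was lower. Cd163, a haemoglobin scavenger receptor, had 5.17, 7.44 and 6.88 CPM and 6.03, 6.36 and 7.01 CPM (log2 -0.00 ± 0.27, edgeR adjusted p = 0.999), and Mertk, a receptor for dying cells, had 37.4, 46.0 and 41.2 CPM and 36.4, 49.0 and 32.6 CPM (log2 -0.08 ± 0.20, edgeR adjusted p = 0.991). Gpnmb, a glycoprotein of lipid-laden macrophages, had 7.64, 8.40 and 10.4 CPM and 9.93, 13.5 and 9.42 CPM (log2 0.31 ± 0.25, edgeR adjusted p = 0.990), and the groups overlapped for each. These 3 genes were chosen after their values were seen.

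**Figure D2:**
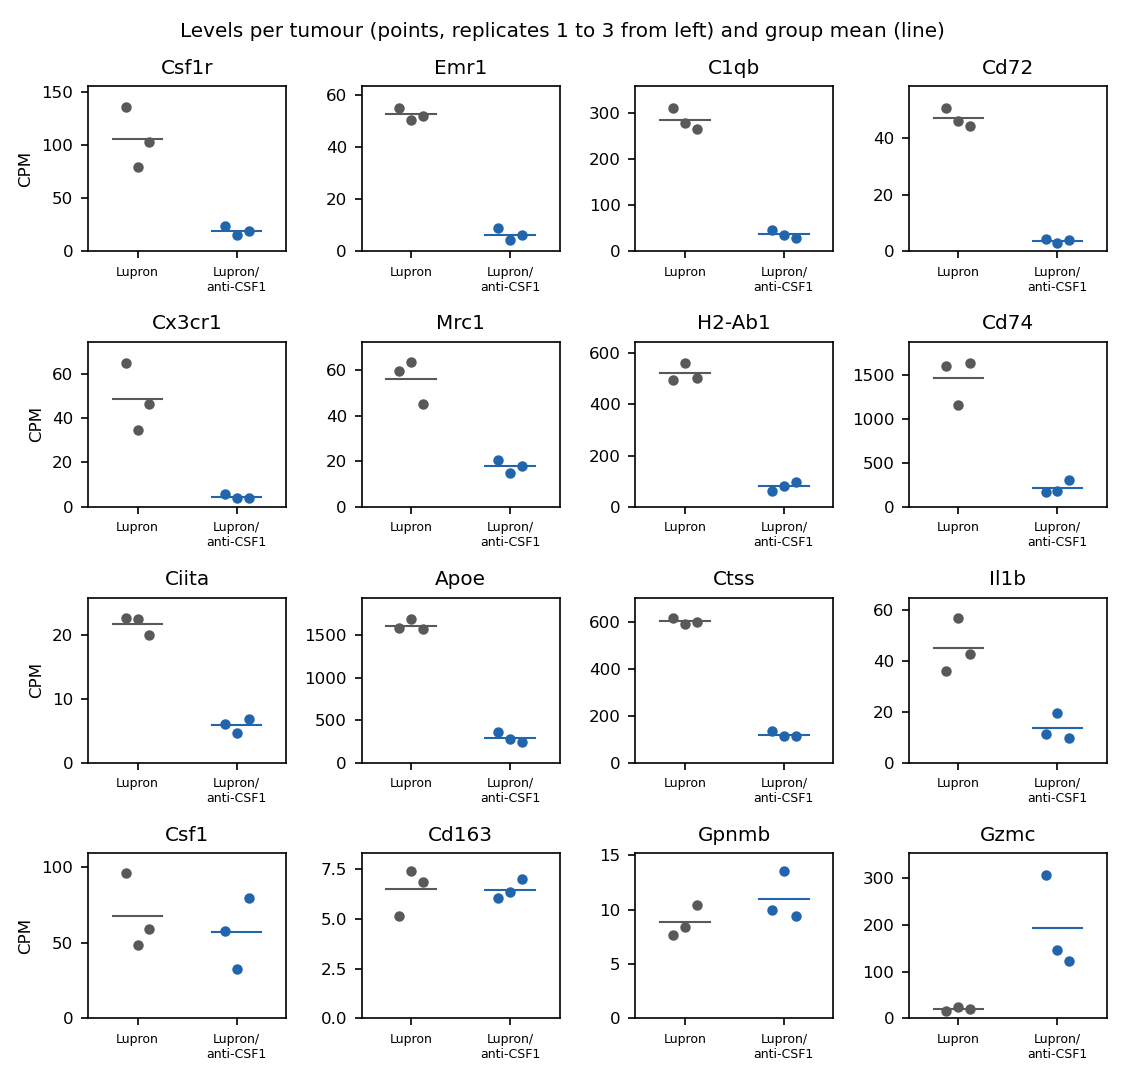
Level of 16 genes in CPM (y axis, from 0, a separate scale for each panel) in each tumour, with grey points for Lupron and blue points for the combination, replicates 1 to 3 from left to right, and a line at each group mean. The 2 groups separate in every panel except Csf1, Cd163 and Gpnmb, and among the separated panels Gzmc is the one with the combination tumours higher.

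Genes on the list of resident macrophage receptors were lower in part, and which cells held their RNA was not tested. Of 23 tested (25 listed), 6 fell, 19 had estimates below 0 and the median log2 difference was -1.40, but none passed without the combination replicate 2. The lectin Mgl2 fell from 18.4 ± 6.69 to 3.52 ± 0.916 CPM, Clec4a3 from 6.31 ± 1.03 to 1.05 ± 0.150 CPM, Clec4a1 from 13.2 ± 3.06 to 1.32 ± 1.11 CPM, Clec12a from 7.64 ± 1.10 to 1.94 ± 0.638 CPM, the inhibitory receptor Cd300a from 12.6 ± 3.18 to 3.17 ± 0.673 CPM, and the ficolin Fcna from 4.45 ± 0.556 to 0.732 ± 0.0990 CPM. Mgl2 and Clec4a3 passed in 3 of the 6 fits without 1 tumour, Cd300a and Fcna in 2 and Clec12a and Clec4a1 in 1, with highest edgeR adjusted p between 0.0696 for Mgl2 and 0.282 for Clec4a1. Fcna, a lectin of the complement pathway, had 3.82, 4.88 and 4.64 CPM and 0.726, 0.835 and 0.637 CPM, so the groups were well apart at low counts.

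Most genes of antigen presentation on MHC class II fell. Of 10 genes tested (11 listed), all 10 had estimates below 0 and 7 passed, with a median log2 difference of -2.44, and the same number, 7, passed in each of the 6 fits without 1 tumour. H2-Ab1, the beta chain of I-A, had 497, 561 and 505 CPM in the Lupron tumours and 63.6, 79.7 and 98.4 CPM in the combination tumours (log2 -2.69 ± 0.24, edgeR adjusted p = 0.00185). H2-Aa, its alpha chain, had 347, 385 and 347 CPM and 40.8, 63.3 and 64.5 CPM (log2 -2.68 ± 0.24, edgeR adjusted p = 0.00185). H2-Eb1, of I-E, had 339, 312 and 322 CPM and 32.5, 36.7 and 62.6 CPM (log2 -2.88 ± 0.28, edgeR adjusted p = 0.00243). The Lupron tumours lay close together for these 3 genes, and the combination replicate 3 was the highest of its group for each.

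Genes for loading class II molecules and for their transcription fell too. Cd74, the invariant chain, had 1608, 1164 and 1636 CPM and 172, 182 and 299.8 CPM (log2 -2.75 ± 0.32, edgeR adjusted p = 0.00381). H2-DMb1 and H2-DMa, the peptide exchange factor, went from 43.1 ± 6.90 to 5.14 ± 0.361 CPM and from 41.7 ± 6.47 to 9.08 ± 1.30 CPM (log2 -3.07 ± 0.21 and -2.20 ± 0.21). Ciita, the coactivator that class II promoters need, had 22.6, 22.5 and 19.98 CPM and 6.07, 4.70 and 6.74 CPM (log2 -1.89 ± 0.22, edgeR adjusted p = 0.00381). The 3 members that did not pass were H2-Oa (log2 -1.91 ± 0.59, edgeR adjusted p = 0.306), H2-Ob (log2 -0.84 ± 0.57, edgeR adjusted p = 0.990) and H2-DMb2 (log2 -1.44 ± 0.46, edgeR adjusted p = 0.346). None of 12 MHC class I presentation genes tested passed, and their median log2 difference was -0.13.

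Class II promoters are known for an X box and a Y box a fixed distance apart, bound by RFX and NF-Y, on which CIITA assembles. Since 7 class II genes fell together, stretches of the promoters of H2-Eb1 and H2-Aa are shown, 5′ to 3′ on the gene's strand, with the letters CTNGNAACT (in the X box region) and GATTGG (whose reverse complement holds CCAAT) in capitals. All are from RefSeq on GRCm38.p6.
H2-Eb1: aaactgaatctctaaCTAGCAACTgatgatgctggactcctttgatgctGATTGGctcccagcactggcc
H2-Aa: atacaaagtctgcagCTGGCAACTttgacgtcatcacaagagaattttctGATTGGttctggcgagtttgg
They lie at chr17:34305758-34305827 (plus strand) and chr17:34287852-34287922 (minus strand), before each gene's start. CTNGNAACT was written down from these promoters and that of H2-DMb1, so the match of these 3 genes to it is no finding. Searched on both strands with at most 40 bases before GATTGG, the pair occurred in 12 of 32851 promoters of 250 bases before to 50 after a start, and 9 of the 12 belonged to tested genes. Of those 9, the 6 others did not pass the test in this comparison (lowest edgeR adjusted p = 0.310, for Fam78a). H2-Ab1, H2-DMa, Cd74 and Ciita, which fell too, were not among the 12. GATTGG alone was in 13.6% of the 184 promoters of genes that fell, in 16.1% of all promoters and in 19.6% of the 14225 promoters of tested genes.

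Receptors that recognise opsonised particles fell in part. Of 17 complement and Fc receptor genes tested 7 fell, while the list's median log2 difference was -0.60, and 3 passed without the combination replicate 2. Fcgr4, which binds IgG2 complexes, had 50.2, 55.4 and 43.9 CPM and 10.5, 6.78 and 4.56 CPM (log2 -2.78 ± 0.31, edgeR adjusted p = 0.00312). Fcgr2b, the inhibitory Fc receptor, had 41.5, 66.1 and 53.8 CPM and 11.3, 13.8 and 14.1 CPM (log2 -2.04 ± 0.22, edgeR adjusted p = 0.00312). The activating receptor Fcgr3 had 85.1, 143 and 80.5 CPM and 27.6, 27.5 and 17.6 CPM (log2 -2.08 ± 0.29, edgeR adjusted p = 0.00932). In all 3 genes the combination tumours lay below every Lupron tumour, and the genes sit within chr1:170960558-171065915. Properdin, Cfp, went from 27.1 ± 2.37 to 8.55 ± 0.395 CPM, the anaphylatoxin receptors C3ar1 and C5ar1 from 43.7 ± 9.58 to 9.46 ± 3.45 CPM and from 23.8 ± 10.0 to 4.58 ± 2.41 CPM, and the integrin chain Itgb2 from 37.0 ± 5.41 to 14.6 ± 2.22 CPM. Fcgr2b, Fcgr4 and Cfp passed in all 6 fits without 1 tumour, C3ar1 in 5, Fcgr3 and Itgb2 in 3 and C5ar1 in 2 (highest edgeR adjusted p = 0.260 for C5ar1, without the combination replicate 2).

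Sensors of microbial products fell in part. Of 13 Toll-like receptor and adaptor genes tested 6 fell, with a median log2 difference of -1.44, and 3 passed without the combination replicate 2. Ly86, or MD-1, which pairs with CD180, had 75.8, 78.7 and 73.0 CPM and 11.6, 15.1 and 11.3 CPM (log2 -2.58 ± 0.19, edgeR adjusted p = 0.00117). Tlr13, a sensor of bacterial ribosomal RNA, had 21.3, 15.6 and 18.2 CPM and 4.43, 3.65 and 3.15 CPM (log2 -2.29 ± 0.25, edgeR adjusted p = 0.00312). Tlr8 went from 10.3 ± 1.05 to 2.08 ± 0.317 CPM, its neighbour on the X chromosome Tlr7 from 11.8 ± 0.932 to 2.52 ± 1.36 CPM, Tlr1 from 11.5 ± 1.88 to 1.97 ± 1.17 CPM and Tlr2 from 13.0 ± 1.81 to 4.80 ± 1.10 CPM. Ly86, Tlr13 and Tlr8 passed in all 6 fits without 1 tumour, but Tlr7, Tlr1 and Tlr2 in 1 each (highest edgeR adjusted p = 0.137, 0.179 and 0.187). The families in the next sentences were written down after values were seen, may not hold every member, and are given as descriptions. Of the 6 genes of the phagocyte NADPH oxidase, which makes the respiratory burst, 5 fell, among them Cybb from 115 ± 32.6 to 24.3 ± 3.29 CPM, Cyba from 74.9 ± 28.0 to 22.5 ± 4.20 CPM, Ncf1 from 41.1 ± 3.07 to 11.8 ± 3.03 CPM and Ncf4 from 13.1 ± 0.852 to 4.05 ± 0.804 CPM. The gene that did not, Rac2, went from 31.0 ± 9.47 to 15.2 ± 3.71 CPM (log2 -1.03 ± 0.29, edgeR adjusted p = 0.213). Cybb and Ncf1 passed in all 6 fits without 1 tumour, and Ncf4 and Cyba in 3 (highest edgeR adjusted p = 0.145 for Cyba). Of 10 inflammasome genes 4 fell: the receptors Nlrp1b (6.98 ± 2.37 to 0.889 ± 0.0904 CPM), Nlrc4 (5.38 ± 2.32 to 0.418 ± 0.247 CPM), Aim2 (20.1 ± 3.92 to 7.70 ± 1.10 CPM) and Naip2 (18.7 ± 0.873 to 8.67 ± 0.850 CPM). Nlrp1b passed in 4 of the 6 fits without 1 tumour, Nlrc4 in 2, and Aim2 and Naip2 in 1 each (highest edgeR adjusted p = 0.0695, 0.123, 0.145 and 0.148). Casp1, the protease inflammasomes activate, had 95.7, 92.1 and 108 CPM and 122, 220.0 and 149.7 CPM and did not pass (log2 0.73 ± 0.24, edgeR adjusted p = 0.381).

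Among macrophage transcription factors 5 of 18 fell, with a median log2 difference of -1.23, and 2 passed without the combination replicate 3. Sfpi1, which encodes PU.1 (now Spi1), the factor that sets the myeloid lineage, had 40.3, 27.4 and 33.9 CPM and 7.94, 7.10 and 7.21 CPM (log2 -2.19 ± 0.21, edgeR adjusted p = 0.00214). Irf8, its partner at many myeloid genes, had 41.6, 44.7 and 38.5 CPM and 22.2, 17.2 and 19.7 CPM (log2 -1.08 ± 0.18, edgeR adjusted p = 0.0221). Irf5 went from 17.5 ± 4.03 to 5.15 ± 1.23 CPM and Runx3 from 33.6 ± 4.94 to 9.05 ± 3.40 CPM. Sfpi1 passed in all 6 fits without 1 tumour, Runx3 in 4, Irf5 in 3 and Irf8 in 2 (highest edgeR adjusted p = 0.0847, 0.0942 and 0.120).

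PU.1 is known to bind sequences with the letters GAGGAAGT. For 153 of the 200 genes that fell RefSeq promoters were at hand, 184 in all. GAGGAAGT, on either strand, was in 14.1% of these, in 3.2% of all 32851 promoters and in 3.22% of the 14225 promoters of tested genes. The shorter GAGGAA, which every GAGGAAGT holds, was in 52.2%, 28.3% and 27.0%, in the same order. For comparison TGACTCA, the AP-1 site, was in 5.43%, 5.2% and 4.02%, and TATAAA in 13.0%, 13.6% and 7.89%. Other letters searched were GAGGAAG (32.6%, 13.6% and 13.7%) and AGAGGAA (34.8%, 10.4% and 9.72%), which overlap the first, and CTGATTGG (2.72%, 4.1% and 5.31%). An interferon-response element was in 7.61%, 3.44% and 3.17%, and an ETS-IRF composite element in 2.72%, 0.953% and 0.97%. A match is a description of letters, not of binding. The stretches around it in Cd72, Cd300ld, C1qc and Fcgr4 are shown as examples from genes that fell. Each match has room for flanks on both sides and lies mostly outside annotated exons. The genes were taken in order of p, but not every gene that fell was considered. Genes left out of this choice may have a smaller p and a match too. Capitals mark GAGGAAGT or its reverse complement ACTTCCTC.
Cd72: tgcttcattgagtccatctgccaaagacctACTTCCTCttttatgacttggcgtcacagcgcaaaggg
Cd300ld: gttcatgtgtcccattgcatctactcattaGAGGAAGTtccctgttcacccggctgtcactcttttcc
C1qc: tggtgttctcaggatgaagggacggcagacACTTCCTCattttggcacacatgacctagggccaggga
Fcgr4: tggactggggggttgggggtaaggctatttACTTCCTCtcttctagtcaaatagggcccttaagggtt
These lie at chr4:43454638-43454705, chr11:114989992-114990059, chr4:136893072-136893139 (minus strand) and chr1:171018872-171018939 (plus strand) of GRCm38.p6, and the matches start 49, 143, 195 and 24 bases before the transcript start used for the RefSeq promoter. For Cd72 and C1qc that start lies 476 and 22 bases inside the gene's full RefSeq span.

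Both chemokine and chemokine receptor genes fell. Of 14 CC chemokine and receptor genes tested 4 fell, with a median log2 difference of -1.17. Ccl12, a ligand of CCR2, had 26.5, 33.0 and 23.5 CPM and 3.13, 2.09 and 1.04 CPM, a 13.3-fold fall (log2 -3.73 ± 0.39, edgeR adjusted p = 0.00312). Ccl8 had 16.5, 52.2 and 24.2 CPM and 4.77, 4.07 and 2.35 CPM, a fall that passed in 3 of the 6 fits without 1 tumour (log2 -3.05 ± 0.47, edgeR adjusted p = 0.0145, highest 0.115). The receptor Ccr1 went from 60.3 ± 13.2 to 10.4 ± 1.78 CPM. Of 12 CXC genes (median -0.31) only Cxcl16, a chemokine and scavenger receptor for oxidised lipoprotein, passed, with 91.9, 103 and 89.1 CPM and 23.8, 24.7 and 21.7 CPM (log2 -2.02 ± 0.17, edgeR adjusted p = 0.00154). The receptor that brings monocytes into tissue, Ccr2, did not pass (log2 -0.81 ± 0.41, edgeR adjusted p = 0.888).

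Some receptors for nucleotides and enzymes of lipid mediators fell. Of 21 purinergic and eicosanoid genes tested 5 fell, with a median of -0.90, and 2 passed without the combination replicate 3. P2ry13, an ADP receptor, had 10.5, 4.49 and 5.83 CPM and 0.420, 0.313 and 0.402 CPM, an 18.1-fold fall (log2 -4.17 ± 0.48, edgeR adjusted p = 0.00381). Hpgds, the prostaglandin D synthase of macrophages and mast cells, had 16.7, 12.5 and 11.1 CPM and 2.44, 2.09 and 1.71 CPM (log2 -2.69 ± 0.29, edgeR adjusted p = 0.00312). P2ry6, a UDP receptor, went from 14.0 ± 2.66 to 2.46 ± 1.14 CPM, the leukotriene receptor Cysltr1 from 11.4 ± 2.68 to 3.23 ± 1.19 CPM and thromboxane synthase Tbxas1 from 10.1 ± 1.27 to 2.75 ± 1.26 CPM. P2ry13 and Hpgds passed in all 6 fits without 1 tumour, P2ry6 in 3, Tbxas1 in 1 and Cysltr1 in 0 (highest edgeR adjusted p = 0.0883, 0.204 and 0.186).

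The inhibitory and paired receptors of myeloid cells held some of the largest falls, again as families chosen after values were seen. Of 16 tested 12 fell. The estimate was above 0 for 2, Lilra6 with 7 counts over the Lupron tumours and 68 over the combination tumours (log2 3.25 ± 1.03, edgeR adjusted p = 0.339) and Cd300lb (log2 0.64 ± 0.33, edgeR adjusted p = 0.888), and neither passed. Cd72, a lectin that restrains B cell and macrophage receptors and lies at chr4:43447724-43455102, had the smallest p of all genes: 50.7, 46.1 and 44.2 CPM in the Lupron tumours and 4.24, 2.71 and 3.96 CPM in the combination tumours, a 12.9-fold fall (log2 -3.68 ± 0.23, edgeR adjusted p = 0.00102). Lilra5 had 15.5, 19.6 and 13.9 CPM and 0.267, 1.30 and 1.24 CPM (log2 -4.13 ± 0.52, edgeR adjusted p = 0.00596). Lair1, a collagen receptor, had 64.3, 84.0 and 55.4 CPM and 11.0, 7.83 and 6.04 CPM (log2 -3.03 ± 0.28, edgeR adjusted p = 0.00188). The others went from 48.7 ± 9.04 to 16.3 ± 2.55 CPM for Lilrb4, from 23.1 ± 3.01 to 5.72 ± 1.27 CPM for Pilra, from 29.0 ± 3.39 to 6.20 ± 0.757 CPM for Cd300ld, and from 8.14 ± 2.44 to 1.65 ± 0.210 CPM for Siglece. Lilrb4 passed in 5 and Siglece in 2 of the 6 fits without 1 tumour (highest edgeR adjusted p = 0.0634 and 0.0821). Lilrb4 and Gp49a are near-identical neighbours, so reads may be split between them, and Gp49a passed in 3 of the 6 fits (highest edgeR adjusted p = 0.0947). Genes of signalling proteins that act just inside such receptors fell in 11 of 15 cases, from Btk (8.15 ± 1.63 to 1.56 ± 0.287 CPM), a kinase of B and myeloid cells, to Syk (26.6 ± 3.10 to 12.4 ± 1.35 CPM), a kinase that starts Fc receptor signals. Btk passed in 3 of the 6 fits without 1 tumour and Syk in 0 (highest edgeR adjusted p = 0.0726 and 0.150). Ptprc, the CD45 phosphatase of all white blood cells, had 96.7, 123 and 101 CPM and 42.7, 40.9 and 34.2 CPM (log2 -1.45 ± 0.19, edgeR adjusted p = 0.00662; 0.0528 without the combination replicate 3). Of 9 genes of costimulatory, checkpoint and adhesion molecules 4 fell: Havcr2, Cd86 (32.2 ± 14.2 to 8.03 ± 1.99 CPM), Cd83 (21.8 ± 7.09 to 6.12 ± 1.62 CPM) and Icam1 (21.1 ± 0.938 to 9.43 ± 1.85 CPM). Havcr2 passed in all 6 fits without 1 tumour, Cd86 and Cd83 in 2 and Icam1 in 0 (highest edgeR adjusted p = 0.153, 0.145 and 0.162). Cd274, which encodes PD-L1, had 27.3, 32.1 and 33.8 CPM and 17.1, 24.3 and 19.4 CPM, separated but not passing (log2 -0.61 ± 0.20, edgeR adjusted p = 0.369).

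Markers of other leukocytes were examined as whole lists. All 24 T cell markers tested had estimates below 0, their summed level was 123 to 162 CPM in the Lupron tumours and 40.0 to 71.9 CPM in the combination tumours, and 2 fell (median -1.16). These were Cd4, with 13.8, 13.7 and 11.8 CPM and 2.33, 1.77 and 2.28 CPM (log2 -2.62 ± 0.26, edgeR adjusted p = 0.00262), and Havcr2, or TIM-3, with 24.3, 23.6 and 29.5 CPM and 6.45, 7.56 and 6.91 CPM (log2 -1.89 ± 0.20, edgeR adjusted p = 0.00312). Both are also made by myeloid cells. Cd3g, part of the T cell receptor complex, had 7.25, 18.2 and 11.2 CPM and 2.86, 6.16 and 3.55 CPM and did not pass (log2 -1.55 ± 0.42, edgeR adjusted p = 0.193), nor did Lag3 (log2 -1.34 ± 0.38, edgeR adjusted p = 0.233). The 10 B and plasma cell markers tested were all below 0 (median -1.02) and 1, Cd22, passed, from 5.61 ± 1.23 to 0.690 ± 0.174 CPM (log2 -3.02 ± 0.43, edgeR adjusted p = 0.00997; 3 of the 6 fits without 1 tumour, highest 0.0713). Of 16 dendritic cell markers (median -0.74) 2 passed: Itgax, the integrin CD11c, with 109, 58.6 and 78.7 CPM and 19.2, 14.2 and 22.2 CPM (log2 -2.15 ± 0.28, edgeR adjusted p = 0.00681; 0.0576 without the combination replicate 2), and Sirpa, from 100.3 ± 14.3 to 31.4 ± 7.05 CPM. Macrophages express both. Of 7 mast cell markers (median 0.13) Hpgds alone fell. None of 12 monocyte markers (median -0.02, though 2 passed without Lupron replicate 2) and none of 11 neutrophil markers (median 0.34) passed. With 1 tumour left out, medians ran from -0.33 to 0.22 for monocyte, -0.26 to 0.49 for neutrophil and -0.14 to 0.65 for mast cell markers. They stayed below 0 for T cell (-1.38 to -0.95), B and plasma cell (-1.48 to -0.33) and dendritic cell markers (-1.03 to -0.38). The part of these cells in the falls of genes they share with macrophages was not tested.

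The largest falls in fold terms were in genes of mixed function. Kcnj10, an inward-rectifier potassium channel at chr1:172341210-172374085, had 7.91, 6.70 and 6.03 CPM and 0.0382, 0.313 and 0.302 CPM, a 31.3-fold fall (log2 -4.97 ± 0.63, edgeR adjusted p = 0.00651). Trpm2, a cation channel opened by oxidative stress, had 8.73, 9.37 and 7.52 CPM and 0.764, 0.730 and 0.402 CPM (log2 -3.76 ± 0.39, edgeR adjusted p = 0.00311). Dnase1l3, a nuclease secreted by macrophages and dendritic cells, had 77.1, 30.7 and 78.8 CPM and 5.00, 6.52 and 6.00 CPM (log2 -3.41 ± 0.37, edgeR adjusted p = 0.00312). In these 3 genes no combination tumour came near the Lupron tumours. Gbp2b, an interferon-induced GTPase (also called Gbp1), went from 7.22 ± 1.24 to 0.317 ± 0.319 CPM (log2 -4.47 ± 0.87, edgeR adjusted p = 0.0476), and passed in 1 of the 6 fits without 1 tumour (highest 0.259). Ocstamp, needed for fusion of osteoclasts and macrophage giant cells, went from 5.82 ± 1.81 to 0.469 ± 0.162 CPM, BC024582 from 4.36 ± 0.563 to 0.319 ± 0.167 CPM, and the lectin Clec4a2 from 8.99 ± 2.82 to 0.936 ± 0.534 CPM. BC024582 passed in 3 and Clec4a2 in 4 of the 6 fits (highest edgeR adjusted p = 0.0748 and 0.104).

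Of the 4 genes that rose 3 were granzymes, the serine proteases of cytotoxic granules. Gzmc had 14.9, 23.5 and 19.5 CPM in the Lupron tumours and 307, 147 and 124 CPM in the combination tumours, a 9.99-fold rise (log2 3.32 ± 0.38, edgeR adjusted p = 0.00374), the only rise to pass in all 6 fits without 1 tumour. Gzmd had 0.461, 0.965 and 0.406 CPM and 189, 48.3 and 17.1 CPM (log2 7.18 ± 1.12, edgeR adjusted p = 0.0370), with the combination replicate 1 far above the others. Gzmb, the main granzyme of killer lymphocytes, had 9.09, 16.6 and 14.8 CPM and 58.9, 40.6 and 32.4 CPM (log2 1.70 ± 0.30, edgeR adjusted p = 0.0292). Gzmb passed in 1 and Gzmd in 2 of those 6 fits (highest edgeR adjusted p = 0.162 without Lupron replicate 3 and 0.326 without Lupron replicate 2). The neighbours Gzme, Gzmf and Gzmg did not pass: Gzmg had 6 counts in all over the Lupron tumours and 3156 over the combination tumours (edgeR adjusted p = 0.158), Gzmf 18 and 4219 (0.165), and Gzme 32 and 2610 (0.387). All 5 tested genes of the Gzmc to Gzmg cluster were higher in every combination tumour than in any Lupron tumour, and 2 passed. Of all tested genes 5.9% were separated upward in this way. In Gzme, Gzmf and Gzmg the order of the combination tumours was that of Gzmd, replicate 1 highest and replicate 3 lowest.

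**Figure D3:**
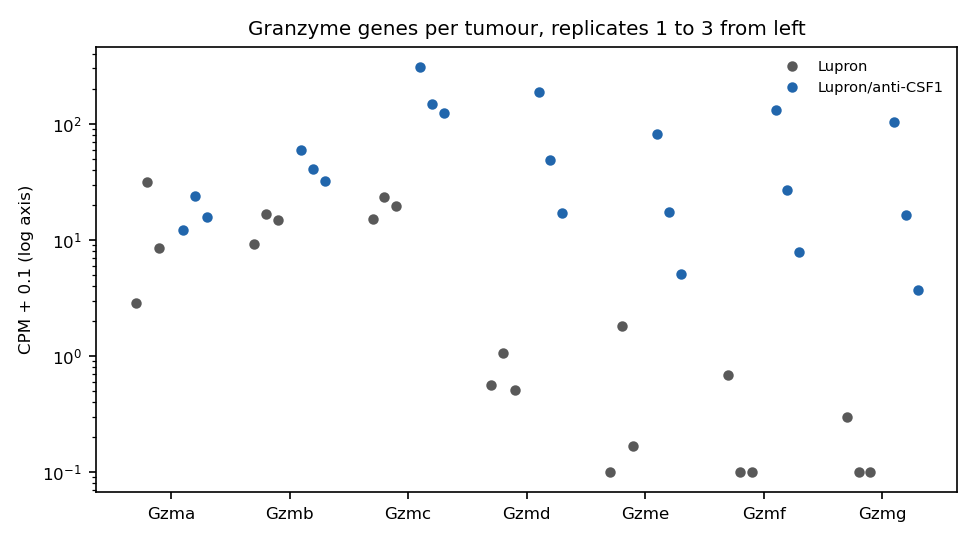
Granzyme levels in each tumour as CPM + 0.1 on a log y axis (grey, Lupron; blue, the combination; replicates 1 to 3 from left to right for each gene on the x axis). Gzmb to Gzmg separate fully between the groups, while Gzma overlaps, with 2.77, 31.6 and 8.43 CPM against 12.1, 23.7 and 15.6 CPM.

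Gzmc to Gzmg are related genes that lie together on chromosome 14, between the start of Gzme at 56117619 and the end of Gzmb at 56262334. Transcripts of Gzmd to Gzmg are close copies that share 86.4% to 94.8% of aligned bases. That of Gzmc shares 74.5% to 76.1% with them and 76.9% with that of Gzmb. The counting may have moved reads among such genes, so the values of single members are uncertain. How far this touched Gzmc was not tested. The RefSeq promoters of Gzmc to Gzmg (250 bases before to 50 after the start) share 86.1% to 94.0%. A stretch of 160 bases ending just past the start used for the RefSeq promoter is shown for the 2 that passed, to let their likeness be seen.
Gzmc: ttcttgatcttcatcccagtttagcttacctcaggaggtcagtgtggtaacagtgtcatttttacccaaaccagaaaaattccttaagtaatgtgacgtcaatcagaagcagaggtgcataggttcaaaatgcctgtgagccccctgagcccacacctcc
Gzmd: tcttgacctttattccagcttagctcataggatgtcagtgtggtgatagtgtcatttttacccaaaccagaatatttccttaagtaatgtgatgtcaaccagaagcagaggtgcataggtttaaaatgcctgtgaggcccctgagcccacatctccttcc
They lie at chr14:56234648-56234807 and chr14:56132584-56132743, both on the minus strand. The gene's full RefSeq span begins 6990 bases upstream of this start for Gzmc and 10 for Gzmd. Of 15 NK and cytotoxic genes tested Gzmb alone passed, and the median log2 difference was 0.27 (-0.12 to 0.88 with 1 tumour left out). Eomes, a transcription factor of NK and memory T cells, had 0.922, 0.738 and 0.914 CPM and 6.00, 2.30 and 4.79 CPM (log2 2.34 ± 0.49, edgeR adjusted p = 0.0693), Prf1, perforin, 2.54, 3.58 and 1.56 CPM and 14.6, 4.54 and 4.76 CPM (log2 1.65 ± 0.54, edgeR adjusted p = 0.381), and Ncr1, the NK receptor NKp46, 1.12, 2.73 and 2.54 CPM and 9.17, 4.17 and 4.12 CPM (log2 1.46 ± 0.49, edgeR adjusted p = 0.423). All 3 were separated between the groups, but the list was mixed. Of its 15 tested genes 9 had estimates above 0 and 6 below. The groups separated upward in 4 of them and downward in 3, against 5.9% and 7.19% of all tested genes. The fourth gene that rose, Cthrc1, a secreted matrix protein of activated fibroblasts, had 90.7, 75.8 and 84.8 CPM and 163, 177 and 151 CPM (log2 0.96 ± 0.17, edgeR adjusted p = 0.0329) and passed in 1 of the 6 fits without 1 tumour (highest 0.205). The next gene by p, Scg2, secretogranin II of secretory granules, had 5.80, 1.31 and 4.37 CPM and 27.2, 19.7 and 14.4 CPM and did not pass (log2 2.40 ± 0.49, edgeR adjusted p = 0.0597).

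The title of the series concerns cholesterol from macrophages. Of 22 genes of cholesterol efflux, uptake and storage only Apoe passed, and the list's median log2 difference was -0.04. Estimates were above 0 for 11 and below 0 for 11. The groups separated downward in 7 of the 22 and upward in 1, against 7.19% and 5.9% of all tested genes. Apoe, the lipoprotein that carries cholesterol out of macrophages, had 1583, 1698 and 1570.2 CPM and 365, 279 and 239.7 CPM, a 5.49-fold fall (log2 -2.46 ± 0.27, edgeR adjusted p = 0.00312) that passed in all 6 fits without 1 tumour. The lipid-sensing receptor Nr1h3, or LXR alpha, had 11.1, 13.1 and 12.0 CPM and 5.00, 4.12 and 2.25 CPM and lay just outside the threshold (log2 -1.67 ± 0.33, edgeR adjusted p = 0.0506). So did Ch25h, cholesterol 25-hydroxylase, with 7.31, 7.44 and 6.77 CPM and 2.48, 2.66 and 2.68 CPM (log2 -1.46 ± 0.29, edgeR adjusted p = 0.0507). The efflux pump Abca1 had 51.7, 65.5 and 60.5 CPM and 43.8, 29.1 and 33.7 CPM (log2 -0.74 ± 0.21, edgeR adjusted p = 0.219). Of the 24 cholesterol synthesis genes 21 had estimates above 0, with a median of 0.29, and none passed. Of 19 cathepsin and lysosome genes 1 fell, the macrophage protease Ctss, with 613, 591 and 597 CPM and 134, 112 and 111 CPM (log2 -2.34 ± 0.21, edgeR adjusted p = 0.00185), while the list's median was -0.04. None of the 6 steroid synthesis genes tested passed (median 0.18).

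Among 15 inflammatory cytokine genes tested (median -0.52) 1 fell. Il1b, interleukin 1 beta, had 36.0, 56.8 and 42.7 CPM and 11.1, 19.7 and 9.69 CPM (log2 -1.75 ± 0.31, edgeR adjusted p = 0.0291), and passed in 2 of the 6 fits without 1 tumour (highest 0.158, without the combination replicate 1). Il33, an alarmin of stromal and epithelial nuclei, was higher in all 3 combination tumours, with 116, 98.5 and 119.7 CPM and 204, 424 and 228 CPM, without passing (log2 1.36 ± 0.30, edgeR adjusted p = 0.0837).

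With all 6 tumours no gene of the lists for tumour cells and stroma passed; Cthrc1 is on none of them. The count of called genes was 0 among 25 proliferation genes (median log2 difference 0.18), 22 interferon-stimulated genes (0.19), 19 hypoxia and glycolysis genes (0.14), 20 fibroblast and collagen genes (0.52), 20 matrix remodelling genes (0.43), 18 endothelial markers (0.18), 14 luminal (-0.28) and 10 basal (0.12) epithelial markers and 15 androgen response genes (0.02). It was 0 among 12 smooth muscle (-0.48), 5 skeletal muscle (-0.36), 10 adipocyte (1.32) and 11 nerve and neuroendocrine genes (0.61). It was also 0 among 15 immediate early and heat shock genes (0.13), 18 EGF and TGF-beta genes (0.11) and 1 red blood cell gene (0.31). It was 0 too among 12 seminal vesicle genes (-1.10) and 11 genes of normal prostate secretion (-1.49), where Lupron replicate 2 weighed heavily: without it the seminal vesicle median was 1.73. Some of these values turned on another tumour: without Lupron replicate 1, 5 genes of normal prostate secretion passed, 2 of androgen response, 2 of nerve and neuroendocrine genes and 1 of the EGF and TGF-beta genes. The lists' medians moved as well when 1 tumour was left out, from -2.12 to -0.08 for normal prostate secretion, -0.97 to 0.23 for smooth muscle, -0.74 to 0.15 for luminal markers, -0.41 to 0.25 for skeletal muscle and 0.29 to 2.13 for adipocyte genes. Fap, a fibroblast protease, had 79.9, 80.1 and 95.3 CPM and 132, 157 and 121 CPM (log2 0.68 ± 0.18, edgeR adjusted p = 0.193). With 3 tumours a group, a p that misses the threshold does not show that these genes were alike. Of the 200 genes that fell 70 were on one of the 42 lists and 130 on none.

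**Figure D4:**
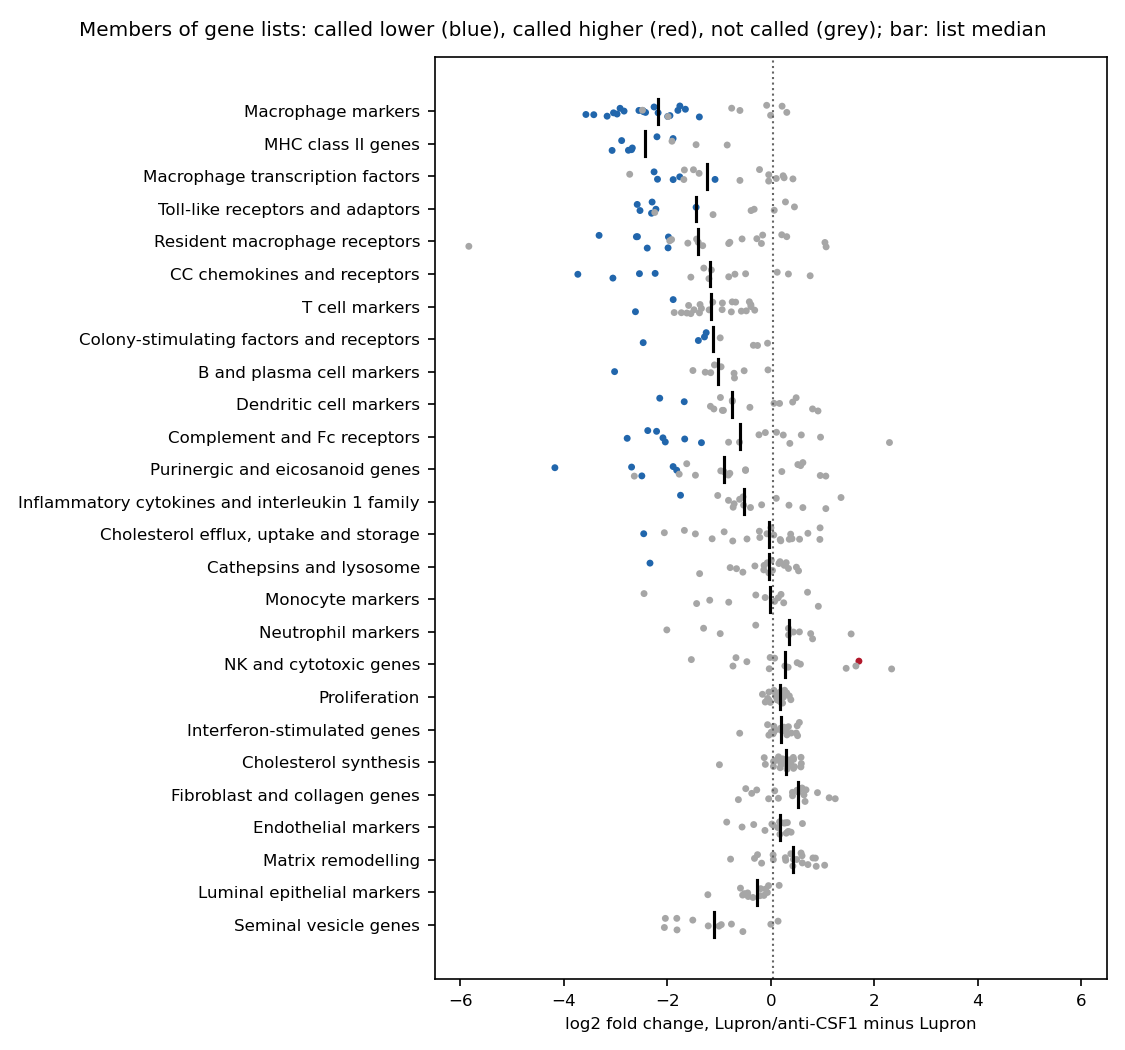
Log2 fold change (x axis, the combination minus Lupron) of each tested member of 26 gene lists (rows); blue members were called lower, red higher, grey not called, the black bar is the list's median and the dotted line the median of all genes, 0.04. The macrophage and MHC class II medians lie furthest left, at -2.18 and -2.44, and among the lists drawn without a called gene the seminal vesicle median, -1.10, lies furthest from the dotted line.

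Some called genes were neighbours in the genome. Of the 204, 202 were placed on GRCm38.p6, and joining neighbours less than 100000 bases apart gave 20 runs that held 48 of them, and 8 runs had 3 called genes. Beside the C1q, Fc receptor, class II and granzyme runs these were Arrb2, Cxcl16 and Zmynd15 at chr11:70432485-70466204, Ncf4, Csf2rb2 and Csf2rb at chr15:78244164-78351001, Ms4a6c, Ms4a6b and Ms4a6d at chr19:11469353-11604804, and C3ar1, Clec4a1 and Clec4a3 at chr6:122847140-122969878. Within these spans all tested genes of the C1q, Fc receptor, class II (chr17:34263227-34316674) and Ncf4 to Csf2rb runs passed. In the Arrb2 and C3ar1 runs 3 of 4 did, and in the Ms4a6 and granzyme runs 3 of 5. Each span was drawn from its first to its last called gene. Its ends therefore pass by construction, and flanking genes are not counted. How often genes drawn from all those tested would form such runs was not computed. Ms4a6b passed in 4, Ms4a6d in 3, and Arrb2 and Zmynd15 in 4 of the 6 fits without 1 tumour (highest edgeR adjusted p = 0.0777, 0.0784, 0.0627 and 0.0834).

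The antibody was also given without Lupron, and those tumours share no library with the 6 compared so far. Of the 204 genes called with Lupron, 203 had the same sign in anti-CSF1 against IgG, where 66.8% of the 14058 genes tested in both had the same sign. The 200 that fell had a median log2 difference of -1.62 there, and 124 of them had an unadjusted p under 0.05 and were lower, against 11.3% of all genes. No gene passed in that comparison with edgeR (1970 at an unadjusted p under 0.05; DESeq2 called 1091), and its biological coefficient of variation was 0.523. Csf1r had log2 differences of -2.47 ± 0.26 with Lupron and -2.31 ± 0.50 without (interaction -0.16 ± 0.59, edgeR adjusted p = 0.954), and Gzmc 3.32 ± 0.38 and 3.46 ± 1.23 (interaction -0.14 ± 1.28, edgeR adjusted p = 0.982). Il1b was the exception in sign, at 0.07 ± 1.04 without Lupron (interaction edgeR adjusted p = 0.841), and without IgG replicate 3, or without anti-CSF1 replicate 2, all 204 had the same sign.

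Whether the antibody's effect differed with Lupron was tested as an interaction over 12 libraries. No gene of 15082 passed with edgeR (lowest adjusted p = 0.488; 1021 genes, 6.77%, at an unadjusted p under 0.05; DESeq2 called 188), though 5 passed without IgG replicate 1, and 9 of the 204 called genes had an unadjusted p under 0.05. Among these was Fcna, with log2 differences of -5.38 ± 0.69 without Lupron and -2.60 ± 0.42 with it (interaction 2.76 ± 0.69, edgeR adjusted p = 0.488). P2ry13 went the other way, at -1.86 ± 0.66 without and -4.17 ± 0.48 with Lupron (interaction -2.33 ± 0.77, edgeR adjusted p = 0.565). The smallest p were those of Anxa13 (interaction 9.49, edgeR adjusted p = 0.488), Ly6f (8.76, 0.488) and Car3 (16.40, 0.488) upward and of Aspg (-5.72, 0.488), Syt5 (-9.18, 0.488) and Sis (-6.55, 0.491) downward, and these sizes depend on the prior count because counts are low in at least 1 group.

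**Figure D5:**
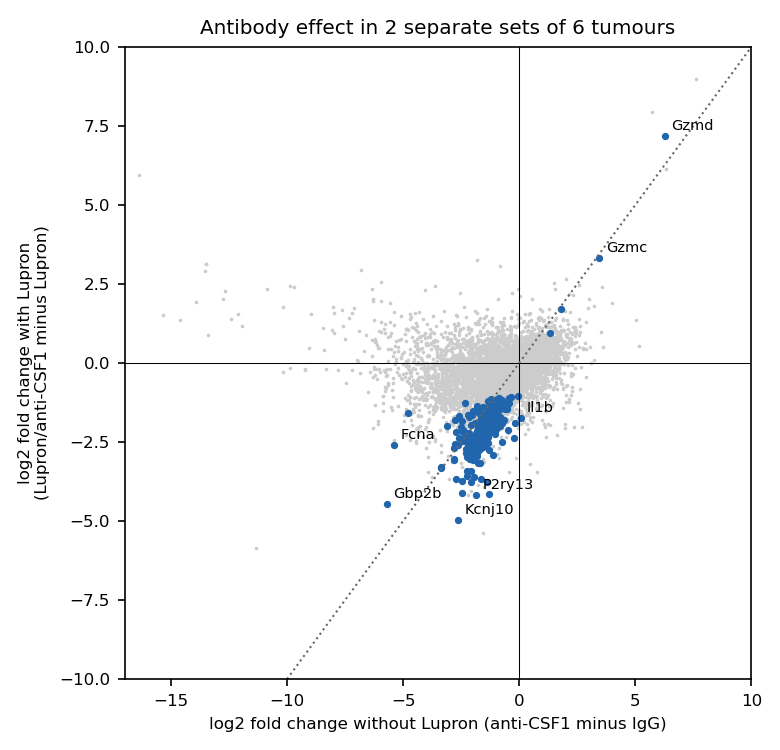
Log2 fold change with Lupron (y axis, the combination minus Lupron) against that without Lupron (x axis, anti-CSF1 minus IgG) for 14058 genes, with the called genes in blue, the others in grey and a dotted line where both are equal. All but 1 of the 204 blue points lie where both values have the same sign; the exception, Il1b, sits at 0.07 on the x axis.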

How the data were processed

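The authors deposited a table of raw read counts per gene symbol for 12 tumour libraries (libraries from NuGen's Ovation Mouse kit, per the labels' protocols). Reads were handled with bcl2fastq 2.20.0.422, cutadapt 1.8.1 and HTSeq 0.6.1 on mm10, per the submitters' processing notes. No source used here names the aligner, the annotation or the strand setting, so reads of overlapping genes cannot be assigned with certainty.

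The 6 libraries were fitted alone with edgeR 4.0.16 (R 4.3.3), using filterByExpr, TMM factors and the robust quasi-likelihood test, with Benjamini-Hochberg adjustment over all 14291 genes at 0.05. Errors of log2 fold changes are SE, taken from the estimate and its F statistic. The interaction used all 12 libraries. DESeq2 1.42.0, limma 3.58.1, other scaling, filters and libraries were alternatives, and the code was tested on simulated data. Replicates of a group differed by far more than sampling noise (lowest chi-square per degree of freedom 91.6). Promoter sequences are from RefSeq (GRCm38.p6), and transcript sequences and exons are from GENCODE.

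The members, the 42 gene lists and the tests were chosen with earlier results of these data known. Genes were named by a rule: Csf1, Csf1r, Il34, Erg and 1 other gene, the 15 largest falls and 5 rises with the smallest p, up to 4 members a list by p and every called member of lists with at most 8, and the 3 interactions with the smallest p each way. Genes of the NADPH oxidase, inflammasome, receptor signalling, paired receptor, Ms4a6 and costimulation families, and other names outside the rule, were chosen after values were seen. Some genes that the rule or these families hold are counted in the totals but not reported here by name.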

Additional observations from a re-analysis of the deposited data

Results flagged for a closer look

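Among the called genes and the other genes picked for this text, 2 had estimates of opposite sign with and without Lupron and no overlap between the 2 groups in either setting. The remaining tested genes were not counted, so these 2 need not be the only ones. Star, which brings cholesterol into mitochondria for steroid synthesis, had 0.461, 0.852 and 0.474 CPM in the Lupron tumours and 1.83, 0.991 and 1.01 CPM in the combination tumours, with log2 differences of 1.11 ± 0.64 with Lupron and -2.40 ± 0.84 without (interaction 3.50 ± 1.01, edgeR adjusted p = 0.498). Msmb, a secretory protein of the normal prostate, had 0.725, 0.625 and 0.203 CPM and 87.6, 2.50 and 4.86 CPM, with log2 differences of 5.95 ± 1.73 with Lupron and -16.39 ± 4.95 without (interaction 22.28 ± 5.00, edgeR adjusted p = 0.488). Neither interaction passed, and both genes were low or near 0 in some tumours, so the fitted sizes depend on the prior count.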

How the results depend on the processing

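The count of 204 genes was 199 with DESeq2 size factors, 200 with upper-quartile factors, 208 with seminal vesicle genes removed, 250 without a filter and 202 with a strict one. It was 443 with the DESeq2 test (36 higher, 407 lower), 519 with limma voom and sample quality weights (84 and 435), 0 with all 12 libraries and 210 with 11 of them. Leaving out 1 tumour gave 85 to 218. The interaction count of 0 became 188 with DESeq2 and 0 to 5 when 1 library was left out, the 5 without IgG replicate 1. The 203 genes of the same sign without Lupron became 199 to 204 with 1 library left out.

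Tumours share replicate numbers across groups, but deviations of same-numbered tumours correlated at 0.150, 0.073 and 0.164, so the numbers were not taken as pairs, although each tumour correlated best with its own number. With the replicate block 246 genes passed (9 higher, 237 lower), 191 of them among the 204. The block gave 0 genes for the interaction, and 233 of 245 called genes had the same sign without Lupron.

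No called gene named above changed direction. Among the others, log2 differences turned sign when 1 tumour was left out, with ranges of -0.62 to 0.029 for Csf1, -0.000673 to 0.30 for Erg, -0.76 to 0.97 for Anxa13, -0.31 to 1.61 for Gzma and -0.20 to 0.10 for Cd163. Cd163, near 0 throughout, was also at 0.00550 without a filter, 0.00181 with 12 libraries, 0.00284 with 11 and 0.00932 with the replicate block. The causes of these changes were not tested. Depth limits the genes near 0 CPM, where 3 counts correspond to 0.0988 to 0.170 CPM.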
